A study of Homo sapiens with 12 samples.

Results

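Carbonic anhydrases are zinc enzymes that interconvert CO2 and water with bicarbonate and a proton, and so set how fast a cell can buffer or export acid. Some act in the cytosol, some in mitochondria and some on the outer face of the plasma membrane, and a few related proteins have lost the catalytic activity. CA9 and CA12, both membrane enzymes with an extracellular active site, are known from solid tumours, where CA9 is a classical hypoxia-induced gene. CA2 and CA13 are cytosolic enzymes, and CA8 is one of the inactive relatives and binds the IP3 receptor ITPR1.

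The genes described are CA2, CA8, CA9, CA12 and CA13, taken by their symbols from the probe sets of the deposited value table. Of these 5 genes, 4 were found among the 18404 genes tested, each with 1 probe set. CA9 is not analysed here. The set was chosen with results of these same arrays known, so the levels and differences of the 4 genes are given as a description, with their errors and without p-values.

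JHU-029 and FaDU are established squamous carcinoma lines of the head and neck. They were infected with lentivirus carrying a control vector (shControl) or a short hairpin RNA against TP63 (shTP63). The TP63 product, p63, is a transcription factor found in basal cells of stratified epithelia. RNA was collected 72 hours after knockdown, and each of the 4 groups (JHU-029 shControl, JHU-029 shTP63, FaDU shControl, FaDU shTP63) held 3 arrays. The labels list several culture media without saying which line grew in which, so a difference between lines and a difference between media cannot be told apart. They name no clone or hairpin sequence and do not say whether the replicates were separate cultures, so errors and p-values cover only the spread between these arrays. The titles of 2 of the 3 FaDU shControl arrays carry the word new, which the labels do not explain. A fit without that pair leaves 1 FaDU shControl array, which is then assumed to vary like the arrays of the other groups. TP63 itself is not analysed here.

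Array medians lay between 6.46 and 6.56 on the log2 intensity scale, and arrays of 1 group correlated at 0.993 to 0.997 across probe sets. Of 8 squamous epithelial markers, 6 were measured. Their summed linear intensity in JHU-029 was 28785 to 30688 in controls and 26932 to 28876 after knockdown. In FaDU it was 18760 to 18848 in controls and 12802 to 13058 after knockdown. By limma (adjusted p under 0.05) 4 of the 6 were lower in FaDU and 0 higher, beside 14.2% and 12.4% of all genes. In JHU-029 1 was higher, EPCAM (log2 difference 0.25, limma adjusted p = 0.0177), and 0 lower, beside 1.80% and 1.35% of all genes. The 6 fibroblast markers summed to 431 to 511 over all arrays. In either line 0 of 6 passed the limma threshold, beside 3.15% of all genes in JHU-029 and 26.6% in FaDU. An unadjusted p under 0.05 was found for 0 in JHU-029 and 1 in FaDU, beside 2727 and 6710 of 18404 genes. Among the 4 endothelial markers only CDH5 passed in FaDU (log2 difference 1.00, limma adjusted p = 1.25e-06), and the sum went from 498 to 524 in FaDU shControl to 865 to 944 in FaDU shTP63, against 122 to 142 in JHU-029. Of 6 immune markers, CD14 and LYZ passed in FaDU, both higher, beside 12.4% of all genes called higher there. The immune sum in FaDU was 2069 to 2127 in controls and 2181 to 2461 after knockdown. Red cells are rich in CA2, and of their markers 2 of 4 were measured. HBB fell by 0.67 in JHU-029 (limma adjusted p = 0.0124), while ALAS2 gave -0.13 there (limma adjusted p = 0.624). Their sum in JHU-029 went from 371 to 488 in controls to 277 to 281 after knockdown. In FaDU it was 131 to 142. No marker had a value of 0. All arrays are of cultured cell lines, so these values describe the RNA of the marker genes and do not show that other cell types were present. Their part in the results below was not tested.

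CA2, the fast cytosolic enzyme, moved in opposite directions in the 2 lines. In JHU-029 its log2 intensity was 9.37, 9.35 and 9.32 in the shControl arrays and 9.83, 10.06 and 10.13 in the shTP63 arrays. In FaDU it was 9.33, 9.10 and 9.33 in the shControl arrays and 8.22, 8.28 and 8.35 in the shTP63 arrays. Every JHU-029 knockdown array thus lay above its controls, and every FaDU knockdown array below its controls. The log2 difference, shTP63 minus shControl, was 0.66 in JHU-029 (SE 0.08, 1.58-fold higher, n = 3 arrays per group). It was -0.97 in FaDU (SE 0.08, 1.96-fold lower). The control groups of the lines overlapped, with means of 9.35 ± 0.03 (SD, n = 3) in JHU-029 and 9.25 ± 0.13 in FaDU. The knockdown groups stood apart, at 10.01 ± 0.16 and 8.28 ± 0.06. The difference between the lines' knockdown differences was -1.63 (SE 0.12), which ranked 10 from the lowest among 18404 genes.

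CA12, the membrane enzyme with an extracellular active site, was the gene of the set that differed most between the lines. JHU-029 shControl arrays had log2 intensities of 9.83, 9.78 and 9.80, and FaDU shControl arrays had 6.12, 5.81 and 6.01. The control means differed by -3.83 (SE 0.10, FaDU minus JHU-029), a 14.2-fold lower level in FaDU. On the log2(value + 16) scale this became -3.52. After knockdown, JHU-029 arrays read 8.65, 8.74 and 8.87, all below their controls. The difference there was -1.05 (SE 0.10, 2.07-fold lower), ranked 4 from the lowest of 18404 genes. In FaDU the knockdown arrays read 6.27, 6.38 and 5.99 and overlapped the controls, with a difference of 0.24 (SE 0.10, 1.18-fold higher). All FaDU values of CA12 lay below the array medians, so a change there would be measured on a dim signal. The knockdown differences of the lines differed by 1.29 (SE 0.14), opposite in sign to CA2.

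**Figure D1:**
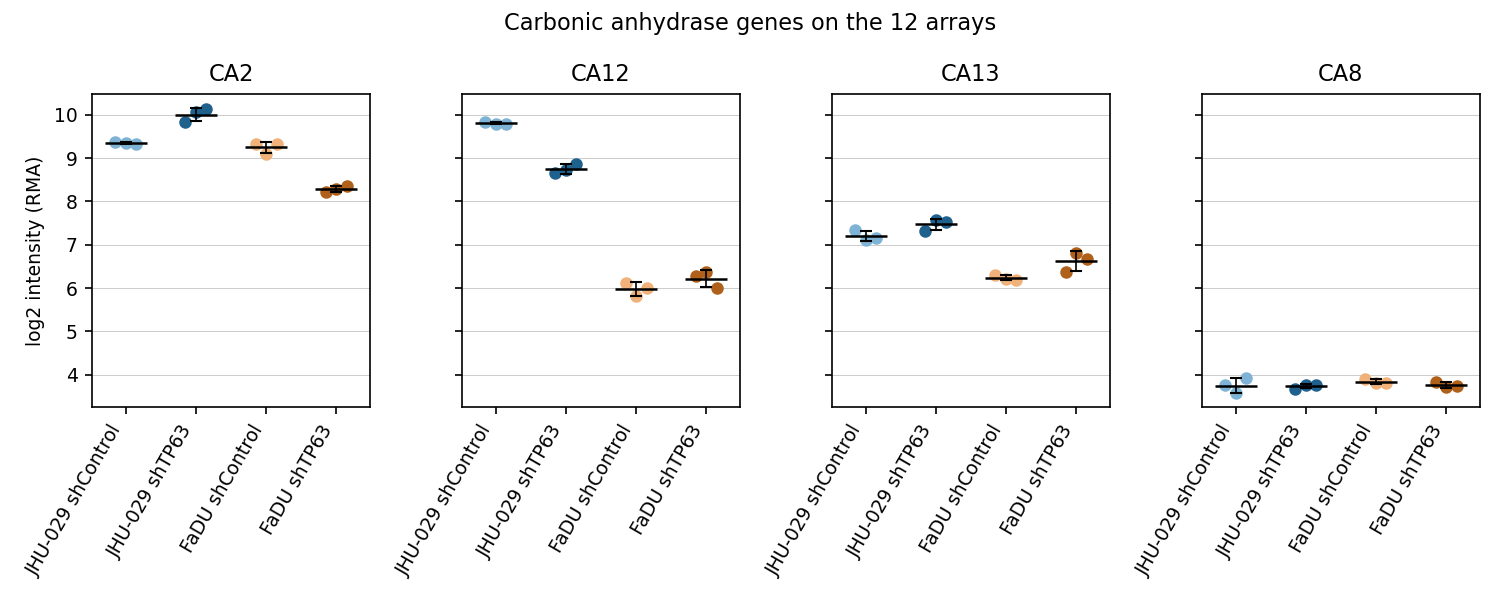
Log2 intensity (RMA) of CA2, CA12, CA13 and CA8 on each of the 12 arrays, by group; points are arrays, horizontal lines group means and bars ± 1 SD (n = 3). CA2 is 9.83 to 10.13 in JHU-029 shTP63 and 8.22 to 8.35 in FaDU shTP63 from overlapping controls, CA12 is at 9.78 to 9.83 in JHU-029 shControl and at most 6.38 in FaDU, and CA8 stays between 3.58 and 3.91.

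The region just before the RefSeq transcription start of CA12 is shown because CA12 was the gene of the set with the largest difference between groups, and because a hypoxia response element has a short core that can be looked for by its letters. It is given 5′ to 3′ on the gene's own strand, 250 bases up to the start, at chr15:63381847-63382096 of GRCh38.p14 on the minus strand. The capitals mark the only match to the core ACGTG or GCGTG on either strand, a GCGTG read on the opposite strand, 234 to 230 bases before the start.
CA12: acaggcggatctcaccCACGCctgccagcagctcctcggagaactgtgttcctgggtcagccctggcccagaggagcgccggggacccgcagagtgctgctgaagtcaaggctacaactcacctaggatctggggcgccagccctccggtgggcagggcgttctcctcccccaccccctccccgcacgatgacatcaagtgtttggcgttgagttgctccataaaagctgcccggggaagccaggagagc
Of 35114 RefSeq windows of the same length, 43.2% held ACGTG or GCGTG on either strand, so a match is common. The p53 family half-site, the recognition unit shared by p53, p63 and p73, had 0 matches in the CA12 window and was in 5.57% of all windows. These matches describe letters only, and absence from this window says nothing of binding elsewhere. The table held no window for CA2, CA8 or CA13.

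CA13, a second cytosolic enzyme, had higher means after knockdown in both lines. In JHU-029 the controls read 7.34, 7.12 and 7.17 and the knockdown arrays 7.33, 7.57 and 7.53. In FaDU the controls read 6.30, 6.21 and 6.20 and the knockdown arrays 6.37, 6.82 and 6.67. The FaDU controls and FaDU shTP63 replicate 1 lay below the lowest array median, 6.46, a dim signal. The groups overlapped in JHU-029 through 1 control and 1 knockdown array, and did not overlap in FaDU. The log2 difference was 0.27 (SE 0.11) in JHU-029 and 0.38 (SE 0.11) in FaDU, and these values differed by 0.11 (SE 0.15). Leaving out FaDU shTP63 replicate 1 gave 0.51 in FaDU and leaving out replicate 2 gave 0.28. Control levels were 1.96-fold lower in FaDU than in JHU-029 (log2 difference -0.97, SE 0.11).

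CA8, the catalytically inactive relative, was near the bottom of the scale in every group. Its 12 values lay between 3.58 and 3.91, below 4.46, the 10th percentile of all gene values. The difference after knockdown was -0.01 (SE 0.08) in JHU-029 and -0.08 (SE 0.08) in FaDU, and all 4 groups overlapped their neighbours in level. At such intensities a small change could go unseen, and these values do not show that CA8 RNA was absent. Its partner ITPR1 gave -0.03 (limma adjusted p = 0.902) in JHU-029 and -0.08 (limma adjusted p = 0.409) in FaDU. ITPR1 was dim too, with group means from 5.67 to 5.97, so a small change in it could also go unseen. Of the 3 IP3 receptors, 0 passed in JHU-029 by limma, beside 3.15% of all genes. An unadjusted p under 0.05 was reached there by 0 of the 3, beside 2727 of 18404 genes. In FaDU 1 fell, where 14.2% of all genes did. This was ITPR3, by 0.19 (SE 0.05, limma adjusted p = 0.0103), a call lost with each line fitted alone (adjusted p = 0.0788) or without the controls titled as new (0.177).

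Ordered by group mean, CA2 ran from JHU-029 shTP63 through the controls of JHU-029 and FaDU to FaDU shTP63, and only the control groups overlapped. CA12 ran from JHU-029 shControl through JHU-029 shTP63 to the FaDU groups, which overlapped each other. CA13 ran from JHU-029 shTP63 and JHU-029 shControl, which overlapped, to FaDU shTP63 and then FaDU shControl, which did not overlap with each other or with JHU-029. The 3 genes therefore had 3 different orders over the same 12 arrays.

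Of the 4 measured genes, 2 had a limma adjusted p under 0.05 in JHU-029 (CA2 higher, CA12 lower), where 3.15% of all genes did, 1.80% higher and 1.35% lower. In FaDU 2 did (CA13 higher, CA2 lower), against 26.6% of all genes, and 2 did for the difference between the lines (CA2 and CA12), against 13.2% (4.97% higher and 8.25% lower in FaDU). Between the control groups 2 did (CA12 and CA13, both lower in FaDU), against 63.8%. Since the genes were chosen on these contrasts, nothing is read from the counts. Groups did not overlap for 2 of the 4 genes in each of the knockdown comparisons, against 24.9% of all genes in JHU-029 and 36.1% in FaDU, and for 2 between the controls, against 69.0% (36.6% higher and 32.4% lower in FaDU). CA13 in FaDU did not pass when FaDU shControl replicate 3, FaDU shTP63 replicate 2 or FaDU shTP63 replicate 3 was left out, nor with a fixed replicate block or without the pair of FaDU controls titled as new. CA12 passed in FaDU only without FaDU shTP63 replicate 3 (log2 difference 0.35).

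Over all genes tested, 34 (0.185%) passed the threshold in both lines with opposite signs and 336 (1.83%) with the same sign, in comparisons that share no arrays. CA2 was among the 34, which restates how it was chosen and supports nothing further. The scatter of knockdown differences shows where the genes lie among all others.

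**Figure D2:**
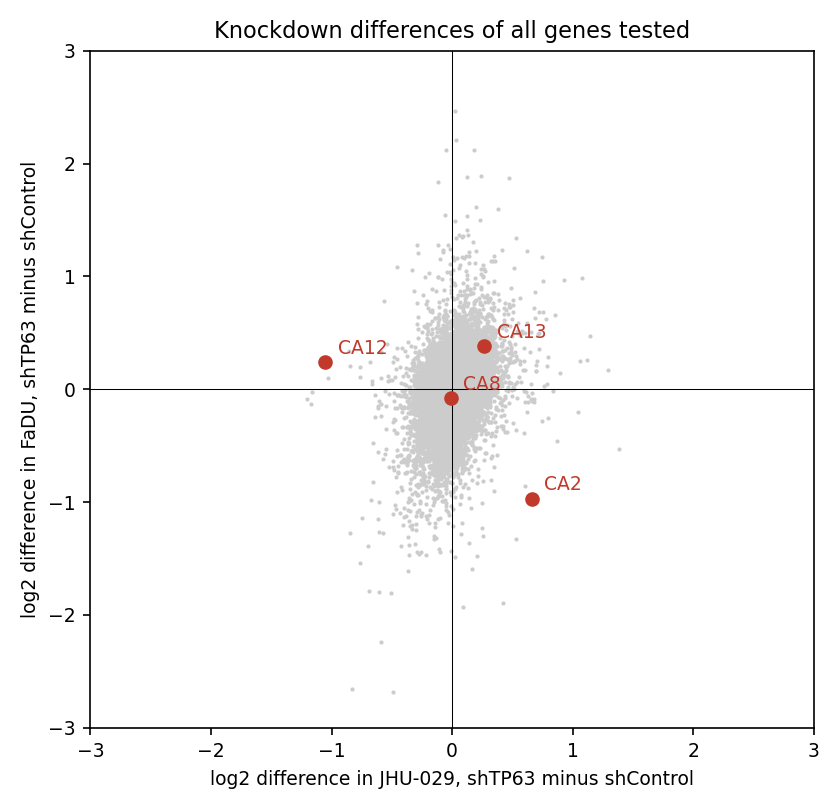
Log2 difference, shTP63 minus shControl, in JHU-029 (horizontal axis) and FaDU (vertical axis) for all 18404 genes (grey) with CA2, CA8, CA12 and CA13 in red. CA2 lies at 0.66 and -0.97, CA12 at -1.05 and 0.24, CA13 at 0.27 and 0.38, and CA8 close to the origin.

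The other carbonic anhydrases were measured for 10 of 10 genes. Only 4 of them had a mean log2 intensity of at least 6. The rest were dim, so a small change in them could go unseen. In JHU-029 0 of the 10 passed by limma, beside 3.15% of all genes. An unadjusted p under 0.05 was reached there by 0, beside 2727 of 18404 genes. Their differences there ran from -0.11 to 0.04 with a median of -0.04, beside 0.00 over all genes. In FaDU 1 fell and 0 rose, with a median of -0.01 beside 0.02 over all genes, of which 14.2% were called lower and 12.4% higher. The difference between the lines passed for 0 of 10 by limma, beside 13.2% of all genes. For that difference 0 had an unadjusted p under 0.05, beside 4750 of 18404 genes. Each of these counts lay below the share over all genes. With 10 genes, several of them dim, nothing is read from that.

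The FaDU fall was that of CA5A, a mitochondrial enzyme, by 0.32 (SE 0.11, limma adjusted p = 0.0397). Its levels were dim, with means of 4.84 ± 0.16 (SD, n = 3) in FaDU shControl and 4.52 ± 0.15 in FaDU shTP63, and a pseudogene copy, CA5AP1, exists that the probes might also detect. It missed the threshold when any of 7 single arrays was dropped. From JHU-029 these were shControl replicates 2 and 3 and shTP63 replicate 1, and from FaDU they were shControl replicates 1 and 2 and shTP63 replicates 2 and 3 (limma adjusted p of up to 0.152). It was also lost without the pair of FaDU controls titled as new (-0.18, limma adjusted p = 0.43), with each line fitted alone (0.0734) and with a random replicate block (0.0627). CA3, a muscle isoform, gave 0.11 in FaDU (limma adjusted p = 0.44) and passed only without FaDU shControl replicate 2 (0.25, limma adjusted p = 0.0152) or without that same pair (0.27, limma adjusted p = 0.0498).

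Per RefSeq, CA13, CA1, CA3 and CA2 are consecutive protein-coding genes on chromosome 8. Within this run the knockdown differences in JHU-029 were 0.27 for CA13, -0.09 for CA1 (SE 0.13), 0.04 for CA3 (SE 0.10) and 0.66 for CA2. In FaDU they were 0.38, 0.06 (SE 0.13), 0.11 (SE 0.10) and -0.97 in the same order. CA1 and CA3 were dim, with mean log2 intensities over all arrays of 4.03 and 6.31, so a small change in them could go unseen. CA13 and CA2, at the ends of the run, had differences of the same sign in JHU-029 and of opposite sign in FaDU.

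Among the other members of the family, CA5B, the second mitochondrial enzyme, was lower in FaDU controls than in JHU-029 controls by -0.66 (SE 0.08, limma adjusted p = 6.39e-06). The inactive relative CA11 was lower by -0.58 (SE 0.06, limma adjusted p = 2.15e-06). CA7, a cytosolic enzyme, was higher in FaDU controls by 0.32 (SE 0.09, limma adjusted p = 0.00587), CA14, a membrane enzyme, by 0.26 (SE 0.07, limma adjusted p = 0.00823) and CA10 by 0.18 (SE 0.07, limma adjusted p = 0.0438). In all, 3 of 10 were higher and 2 lower in FaDU, beside 33.4% and 30.4% of all genes. The 3 higher genes were dim, with mean log2 intensities over all arrays of 5.65 (CA7), 5.39 (CA10) and 4.81 (CA14). The CA10 call was lost under each other scaling (limma adjusted p of up to 0.471) and when any of 8 single arrays was dropped (up to 0.196). From JHU-029 these were shControl replicates 1 and 3 and shTP63 replicates 2 and 3, and from FaDU they were every shControl replicate and shTP63 replicate 1. CA7 did not pass without the controls titled as new (0.23, limma adjusted p = 0.123). The CA14 call was lost under cyclic loess (0.14, limma adjusted p = 0.0808). The other 5, which are CA1, CA3, CA4, CA5A and the secreted enzyme CA6, did not pass (limma adjusted p from 0.256 to 0.816).

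**Figure D3:**
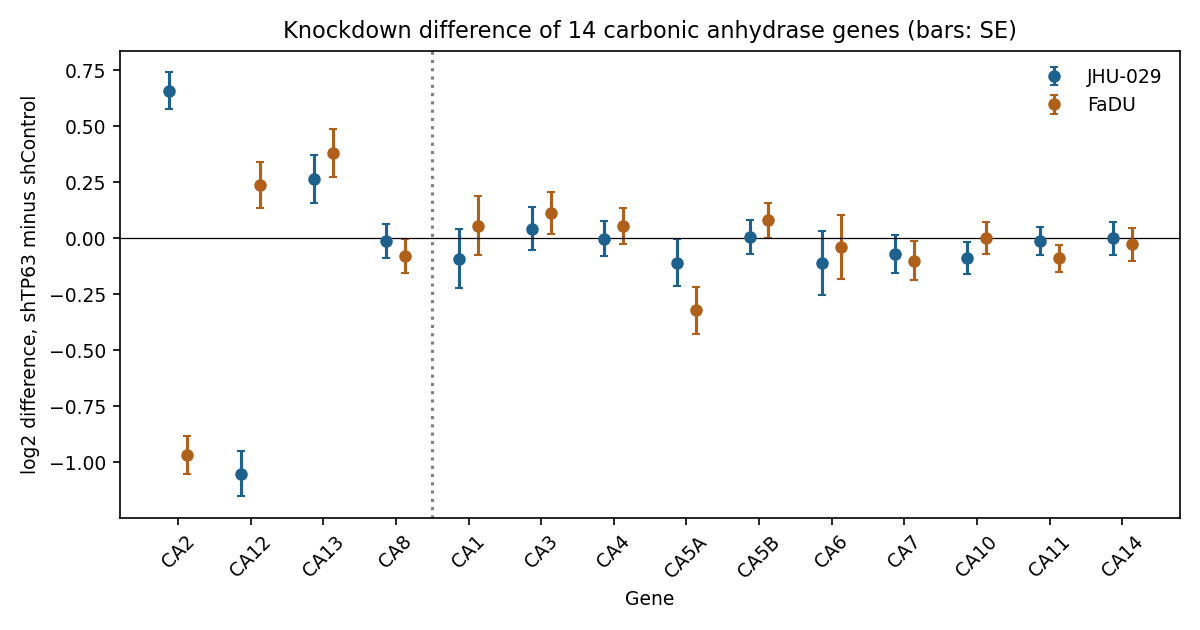
Log2 difference, shTP63 minus shControl, of 14 carbonic anhydrase genes in JHU-029 (blue) and FaDU (orange), with SE bars from the limma fit; the dotted line separates the genes of the set from the other 10. CA2 and CA12 differ in sign between the lines, and the other 10 genes lie between -0.32 and 0.11.

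Most members of the bicarbonate transporter families carry the ion that these enzymes make. Of 15 listed genes 14 were measured, 2 of which fell in JHU-029 and 3 in FaDU, and 0 rose, with medians of -0.08 and -0.10. Over all genes 1.35% were called lower in JHU-029 and 14.2% in FaDU, so the FaDU count is near that share. SLC4A11, a membrane transporter listed by its gene family alone, fell in both lines. Its fall was 0.40 in JHU-029 (SE 0.06, limma adjusted p = 0.0045) and 0.44 in FaDU (SE 0.06, limma adjusted p = 0.000225). The anion exchanger SLC26A6 fell by 0.31 in JHU-029 (SE 0.06, limma adjusted p = 0.0139) and by 0.22 in FaDU (SE 0.06, limma adjusted p = 0.0132). The chloride-bicarbonate exchanger SLC4A2 fell in FaDU, by 0.31 (SE 0.06, limma adjusted p = 0.00151), against 0.01 in JHU-029 (adjusted p = 0.966). For SLC26A6 in JHU-029, dropping shControl replicate 2, shControl replicate 3 or shTP63 replicate 3 ended the call (limma adjusted p of up to 0.0723), and the FaDU call was lost without FaDU shTP63 replicate 1 (0.0503) or the controls titled as new (0.148) and with each line fitted alone (0.062). A fixed replicate block ended both calls in JHU-029 (limma adjusted p = 0.0527 for SLC4A11 and 0.0868 for SLC26A6).

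Of 18 proton and lactate exporters 13 were measured, of which 1 rose in JHU-029 and 2 in FaDU and 0 fell. Over all genes 1.80% were called higher in JHU-029 and 12.4% in FaDU, so the FaDU count is near that share. The monocarboxylate carrier SLC16A7 rose by 0.46 in FaDU (SE 0.07, limma adjusted p = 0.00048). Its rise of 0.32 in JHU-029 (SE 0.07, limma adjusted p = 0.0357) was lost without any 1 of the 6 JHU-029 arrays (limma adjusted p from 0.0572 to 0.137), with a fixed (0.125) or random (0.0557) replicate block and with each line fitted alone (0.0686). The sodium-proton exchanger SLC9A8 rose by 0.46 in FaDU (SE 0.05, limma adjusted p = 3.65e-05) and gave -0.10 in JHU-029 (limma adjusted p = 0.42). The list's medians were 0.00 and 0.03.

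The vacuolar ATPase, a proton pump of acidic organelles and of some plasma membranes, had 22 of 24 subunit genes measured. In FaDU 13 rose and 0 fell, beside 12.4% of all genes called higher and 14.2% lower, with a median of 0.20 beside 0.02 over all genes. In JHU-029 0 passed by limma, beside 3.15% of all genes, with a median of 0.07. An unadjusted p under 0.05 was reached there by 4 of the 22, near the share over all genes (2727 of 18404). The difference between the lines passed for 6 of 22, all higher in FaDU, beside 4.97% of all genes called higher. ATP6V1B1 rose most in FaDU, by 0.61 (SE 0.09, limma adjusted p = 0.000298), followed by ATP6V1D (0.46, SE 0.08) and ATP6V1G1 (0.44, SE 0.05). The count in FaDU was 8 without the pair of FaDU controls titled as new. The difference between the lines passed for 3 in that fit, and for 3 with a fixed replicate block.

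CA9 and CA12 are known as hypoxia-regulated genes, and the genes of that pathway were read alongside. The oxygen-regulated factor HIF1A gave 0.08 in JHU-029 (SE 0.06, limma adjusted p = 0.612) and 0.04 in FaDU (SE 0.06, limma adjusted p = 0.672). EPAS1, its HIF-2 counterpart, fell by 0.35 in JHU-029 (SE 0.06, limma adjusted p = 0.00582) and gave -0.01 in FaDU (limma adjusted p = 0.962). Between the controls it was lower in FaDU by -2.14 (limma adjusted p = 6.78e-12). The part of EPAS1 in the CA12 values was not tested. The EPAS1 call in JHU-029 missed the threshold with a fixed replicate block (adjusted p = 0.0663).

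Of 9 measured HIF pathway components, EPAS1 was the only one past the threshold in JHU-029, beside 3.15% of all genes. In FaDU 2 of 9 passed, both higher, beside 12.4% of all genes called higher and 26.6% in either direction. On so few genes nothing is read from this count in FaDU. There ARNT, the partner of both factors, rose by 0.20 (SE 0.05, limma adjusted p = 0.0163) and EGLN1, an oxygen-sensing hydroxylase, rose by 0.24 (SE 0.06, limma adjusted p = 0.0139). Neither FaDU call held without FaDU shTP63 replicate 1 (limma adjusted p = 0.0529 and 0.0561). ARNT also missed without FaDU shControl replicate 2 (0.0573), and EGLN1 without FaDU shTP63 replicate 2 (0.0566). Both were lost with each line fitted alone and without the controls titled as new (up to 0.224), and ARNT with a fixed replicate block (0.0641).

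Hypoxia-inducible genes other than the carbonic anhydrases did not move one way. In FaDU 12 of 32 rose and 9 fell, beside 12.4% and 14.2% of all genes, with a median of 0.11. The glucose transporter SLC2A3 rose by 0.80 (SE 0.13, limma adjusted p = 0.000631), the mitophagy receptor BNIP3 by 0.58 (SE 0.08) and its relative BNIP3L by 0.52 (SE 0.07). STC2, a secreted glycoprotein, fell by 0.96 (SE 0.06, limma adjusted p = 3.75e-07), the angiogenic factor VEGFA by 0.74 (SE 0.06) and ANGPTL4, a lipase inhibitor, by 0.41 (SE 0.08). The number that fell was 5 without FaDU shControl replicate 1, 4 without FaDU shTP63 replicate 3, and 5 after quantile normalization. Without the controls titled as new, with each line fitted alone, or with a fixed replicate block, 4 fell, and 8, 8 and 10 rose.

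In JHU-029 1 of the 32 rose and 1 fell, beside 1.80% and 1.35% of all genes, with a median of -0.01. An unadjusted p under 0.05 was reached there by 9 of the 32, a higher share than the 2727 of 18404 genes. PFKFB4, a regulator of glycolysis, fell by 0.41 (SE 0.05, limma adjusted p = 0.000978). The matrix cross-linking enzyme LOX rose by 0.52 (SE 0.13, limma adjusted p = 0.0449), a call lost without any 1 of the 6 JHU-029 arrays (limma adjusted p from 0.0582 to 0.173). It was also lost without FaDU shControl replicate 2, FaDU shTP63 replicate 1 or FaDU shTP63 replicate 3 (up to 0.0565), after quantile normalization (0.0515) and with a fixed or random replicate block (0.0775 and 0.0745).

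**Figure D4:**
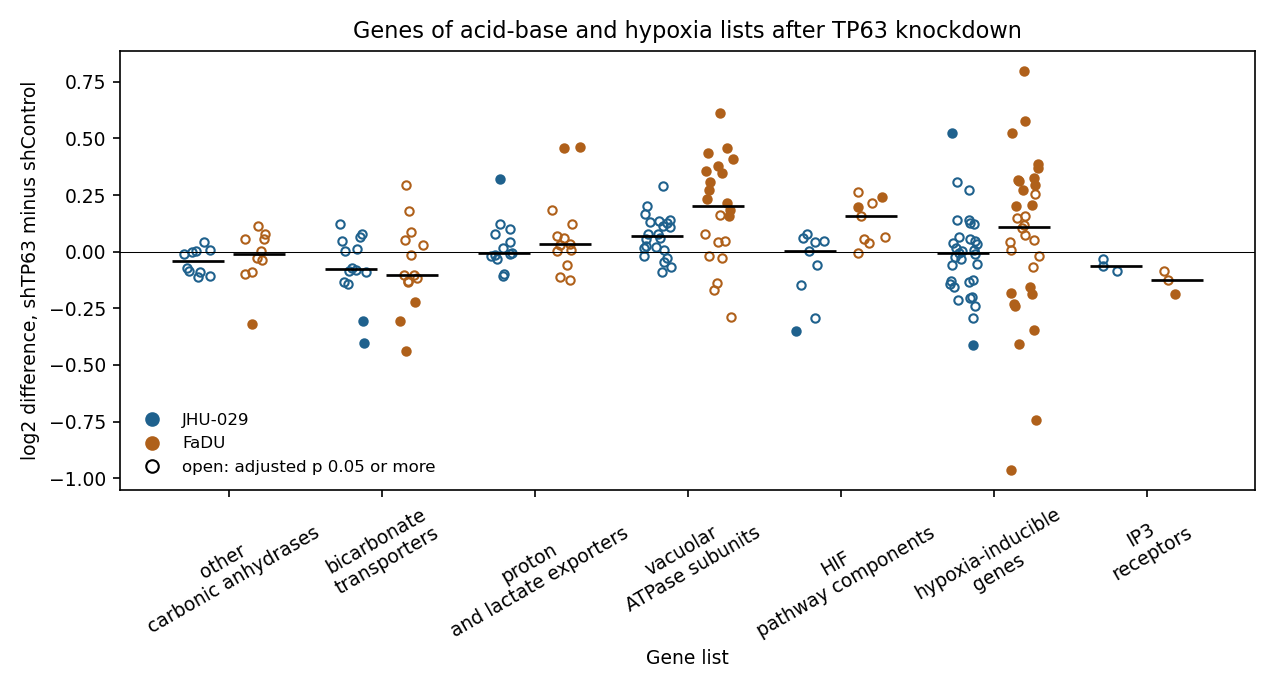
Log2 difference, shTP63 minus shControl, of each measured gene of 7 lists in JHU-029 (blue) and FaDU (orange); filled points passed the limma threshold (adjusted p under 0.05), open points did not, and horizontal lines are list medians. In FaDU 13 of 22 vacuolar ATPase genes are filled and above 0, while hypoxia-inducible genes are filled on both sides of 0, 12 above and 9 below.

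Genes whose pattern was most like each of the 4 were found by Pearson correlation of log2 intensities over the 12 arrays. Candidates were the genes with a mean of at least 6, 12891 for CA8 and 12890 for each of the others. The 3 highest among that many are given. The arrays fall into 2 lines and 4 groups, so the points are not independent and the values are descriptions. For CA2 they were SLIRP (r = 0.977, Spearman rho 0.937), SLC1A3 (r = 0.974, rho 0.867) and EME1 (r = 0.966, rho 0.951). For CA12 they were GJB2 (r = 0.996, rho 0.951), EXOC2 (r = 0.996, rho 0.923) and PALMD (r = 0.995, rho 0.972), all of them lower in FaDU controls, by -2.50, -1.10 and -4.20. For CA13 they were SAMHD1 (r = 0.990, rho 0.958), ZNF597 (r = 0.989, rho 0.979) and SLC35D2 (r = 0.989, rho 0.965). The best for the dim CA8 reached r = 0.755 (SLC22A12), followed by SETD7 (0.731) and RPS23 (0.704).

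Subtracting the mean of each line leaves the knockdown difference together with the spread between replicates. On that scale the closest to CA2 were SLC46A1 (r = 0.985), ZMYM1 (0.972) and SLC39A10 (0.971). SLC46A1 gave 0.19 in JHU-029 and -0.36 in FaDU. The closest to CA12 were BPGM (r = 0.968), GJB2 (0.963) and FARP2 (0.944). GJB2, a connexin of gap junctions, was close on both measures and gave -0.76 in JHU-029 and 0.20 in FaDU. The closest to CA13 were UBE2R2 (r = 0.981), KDELR3 (0.965) and TMED10 (0.963), and to CA8 PLA2G6 (r = 0.858), RPS23 (0.847) and MICOS10 (0.808). The CA8 differences were near 0 (-0.01 in JHU-029 and -0.08 in FaDU), so its matches cannot be read as a shared knockdown response.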

How the data were processed

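The authors deposited 1 table of linear intensity for 12 arrays, made with RMA and R 2.15.1 per the submitters' processing notes. The sources used here do not name the RMA implementation or say which arrays were normalised jointly. The design had assumed a log2 scale, so log2 of the intensity was taken. Of 32321 probe sets, 19158 had 1 gene symbol, 1388 several and 11775 were unlisted. The probe set with the highest mean stood for a gene, which gave 18404 genes.

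Group means over the 12 arrays were fitted in limma 3.58.1, R 4.3.3 (8 residual and 4.17 prior degrees of freedom). P-values are two-sided, with Benjamini-Hochberg adjustment across all tested genes and a threshold of 0.05. The script was tested on simulated data. SE values come from the fit. The members and lists were chosen with earlier results of these data known. Named genes were the set, the other carbonic anhydrases, up to 3 per list, direction and line, HIF1A, EPAS1, ITPR1 and the 3 most alike. Promoter letters are from RefSeq (GRCh38.p14). Alternatives were other scalings, probe set rules, a dim filter, a pseudocount, a variance trend, single-line fits, replicate blocks, and arrays left out.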

Additional observations from a re-analysis of the deposited data

Results flagged for a closer look

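CA2 stood out because every array moved up after knockdown in JHU-029 and every array moved down in FaDU. The difference between the lines was -1.63 on the log2 scale. It passed the limma threshold in the fit over all genes, but CA2 was chosen on these arrays, so it is a description here and has no independent test.

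For 12 of the pathway genes named, the knockdown difference itself differed between the lines (FaDU minus JHU-029, limma adjusted p under 0.05). Over all genes 13.2% passed for this contrast. Most of the named genes were picked for a large difference in 1 line on these same arrays. That choice favours a difference between the lines, so nothing is read from the count. The signed value was higher in FaDU for SLC2A3 (0.78), BNIP3 (0.78), ATP6V1B1 (0.68), SLC9A8 (0.56), BNIP3L (0.48), ATP6V1G1 (0.42), PFKFB4 (0.39), EPAS1 (0.34) and ARNT (0.26). For PFKFB4 and EPAS1 this reflects a fall in JHU-029 (-0.41 and -0.35) beside values near 0 in FaDU (-0.02 and -0.01). The signed value was lower in FaDU for STC2 (-0.84), VEGFA (-0.75) and SLC4A2 (-0.32). The ARNT call was lost when any 1 array other than FaDU shControl replicate 3 was dropped (limma adjusted p of up to 0.111), without the FaDU controls titled as new (0.199), with each array centred on its median (0.112) and with a random replicate block (0.0656). The SLC4A2 call was lost on dropping replicate 2 or 3 of either JHU-029 group (up to 0.0629), and without the controls titled as new (0.0526). With a fixed replicate block SLC4A2, EPAS1, ARNT and SLC2A3 missed the threshold (adjusted p = 0.098, 0.0725, 0.141 and 0.0598).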

How the results depend on the processing

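The counts of genes past the threshold were 580 in JHU-029, 4900 in FaDU, 2433 for the difference between the lines and 11739 between controls. The JHU-029 count became 1015 with a trend in the variance prior and 172 with a fixed replicate block. Leaving out 1 array gave 229 to 626 in JHU-029, 4321 to 4925 in FaDU, 1702 to 2509 for the difference and 10725 to 11869 between controls. The difference count became 1395 with a fixed replicate block. The labels do not say whether equal replicate numbers mark pairs. Same-numbered deviations from group means correlated at -0.339 to 0.0134, and no number was the best match of every array. With 3 arrays per group, such correlations cannot decide whether the arrays were paired. On the log2(value + 16) scale, CA12 between controls was -3.52 and CA13 -0.84. All other values of the 4 genes moved by less than 1 SD between replicates under each alternative. CA8 had a mean under 6 and so no value under the dim filter. The cause of these shifts was not tested. The number of arrays limits precision. Dim signals limit, among others, CA8, CA1, CA3, CA4, CA5A, CA6, CA7, CA10, CA14, ITPR1 and SLC2A3, and in FaDU CA12 and the CA13 controls.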
